A study of Mus musculus with 8 samples.

Results

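The genes of the translation initiation factors were followed in mouse liver after repeated dosing with oxaliplatin. They were chosen by symbol alone: every gene whose symbol starts with Eif and a digit from 1 to 6, apart from 1 Y-linked symbol, and with the kinases of eIF2 and the 4E-binding proteins kept as a group of their own. Of 56 symbols that match the pattern among 21246 gene symbols on the arrays, 48 are factor genes and 7 are such regulators. The 48 factor genes carry 132 probes. For 46 of them a probe stood well above background on 4 or more of the 8 arrays, while Eif4a3l1 and Eif4e1b, with 1 probe each, were above background on 0 arrays. The values of the comparison had no part in the choice of single genes, but the family was taken up with earlier results of this comparison known. The differences and adjusted p-values below therefore describe these 8 arrays and are no independent support for any direction of the family.

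Liver RNA of 8 male mice was hybridised to Agilent arrays with the single dye Cy3, 1 array per mouse. The 4 mice of the model group received oxaliplatin, a platinum drug used against colorectal cancer, into the peritoneal cavity once a week for 6 weeks, as a model of sinusoidal obstruction syndrome, in which the smallest vessels of the liver are damaged. The 4 control mice are labelled only as normal mice, and no injection of a vehicle is named. Strain, age and dose are not given in the sources used here, all 8 mice were male, and the labels call the 4 mice of a group biological replicates.

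Initiation factors bring the ribosome to the start codon of a messenger RNA. The eIF4 factors bind the cap and unwind the leader, and eIF3, eIF1 and eIF1A hold the small ribosomal subunit open for scanning. The factor eIF2, recharged by its exchange factor eIF2B, delivers the initiator tRNA, and eIF5 activates GTP hydrolysis by eIF2. In liver, which makes most plasma proteins, the pathway is braked in a pair of places: stress kinases phosphorylate eIF2, and 4E-binding proteins, which the growth kinase mTORC1 inactivates, hold the cap-binding protein eIF4E.

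The members that the results turn on were each read by a 60-base probe. Each printed difference is that of the transcripts the whole probe binds. For the 7 members past the threshold the first 30 bases of the probe are shown here. They are given in the order in which the array files list them, with no base picked out.

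Eif1 (no position in the files): atttggggtccgcttttaacttggactagt
Eif1ax (mm9 chrX:155823495-155823554): aactgatacgctaagtccactttgttgatt
Eif2a (no position in the files): gaattgccatatgcccactgttaacatcag
Eif2d (mm9 chr1:133064801-133067556): agacctataataaaaaggtgactgtggtcc
Eif3f (mm9 chr7:116083752-116084173): tctcacagtgaagtacgcgtattatgacac
Eif3h (no position in the files): cgcagtgccgcgactgctgtagtggtttct
Eif4e (mm9 chr3:138219236-138219295): caccataattacattcctaactagaattag

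The Eif2d and Eif3f spans are longer than the 60-base probe. Which exon or untranslated region each probe lies in was not analysed here, since no annotation of build mm9 was used. Binding of a probe to relatives of its gene, such as Eif1a and Eif1ax, Eif3j1 and Eif3j2, or Eif4a1 and Eif4a2, was not tested.

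Levels are log2 signals relative to each array's 75th percentile over the probes detected on all 8 arrays, so that a level of 0 is the signal of that percentile. Differences are oxaliplatin minus control on the same scale, ± SE with n = 4 arrays per group, and each gene is read by its brightest probe. Levels of different genes are not compared, because probes bind with different strength. A gene is said to rise or fall where limma's test, with Benjamini-Hochberg adjustment over all 13912 genes tested, gave an adjusted p under 0.05. RNA came from whole liver, where fewer cells of a type and less RNA per cell cannot be told apart. Each slide and scan held the arrays of 1 group, so an effect of slide or scan cannot be told apart from one of the group.

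Between 27.2% and 40.9% of 149782 probes were well above background on an array, and the share was lowest on oxaliplatin replicate 2. The run name in the files is one for oxaliplatin replicates 1 and 2 and another for the remaining 6 arrays. All directions follow the group labels, and the p53 targets Cdkn1a (-3.50 ± 0.68, adjusted p = 0.0147), Phlda3 (-3.46 ± 0.18) and Ccng1 (-1.47 ± 0.10) were lower on the arrays labelled oxaliplatin; whether labels were exchanged was not tested. The marker counts below stand beside 10.3% of all genes tested that rose and 6.72% that fell. Markers of hepatocytes were high on all arrays. Of 11 hepatocyte markers tested 4 rose, among them albumin (Alb, 0.67 ± 0.08), and their summed level was 9.44 to 9.53 on control and 9.70 to 9.87 on oxaliplatin arrays. Erythroid markers (4 of 9 higher, 1 lower) summed to 5.22 to 7.64 against 7.38 to 8.39, and T and NK cell markers (2 of 5 higher) to 0.18 to 0.32 against 0.55 to 0.79. Kupffer cell markers (2 of 7 higher) and sinusoidal endothelial markers (1 of 8 higher, Stab2, and 1 lower, Lyve1) had summed levels whose ranges overlapped between the groups, 4.87 to 5.92 against 4.73 to 5.97 and 4.43 to 4.58 against 4.45 to 4.75. Of the 7 Kupffer cell markers 6 had differences of 0.47 to 1.58, and Marco was at -2.15 (adjusted p = 0.0548). No tested marker of B cells, neutrophils, stellate cells or cholangiocytes passed limma's test, and 3, 0, 1 and 1 of them were higher at an unadjusted p under 0.05. At that unadjusted cut-off 2679 of all 13912 genes were higher and 2066 lower. All 4 neutrophil markers tested were below 0 (-0.73 to -1.57, median -1.38), 0 of them at an unadjusted p under 0.05. The part of these cells in the differences of the factor genes was not tested.

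Most initiation factor genes had lower signals on the oxaliplatin arrays, by small amounts. Of the 46 measured factor genes 6 fell (Eif1ax, Eif2d, Eif3f, Eif4e, Eif3h and Eif2a), 1 rose (Eif1) and 39 did not pass the test. Among all genes tested 6.72% fell and 10.3% rose, and 17% passed in either direction. The difference was below 0 for 35 of the 46 factor genes and above 0 for 11, while 47.6% of all genes were below 0. The median difference was -0.19 over the factor genes and 0.02 over all genes. No factor gene past the threshold differed 2-fold. The groups did not overlap for 17 factor genes that were lower and for 2 that were higher, Eif1 and Eif5a, where all genes gave 11.7% and 14.2%.

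**Figure D1:**
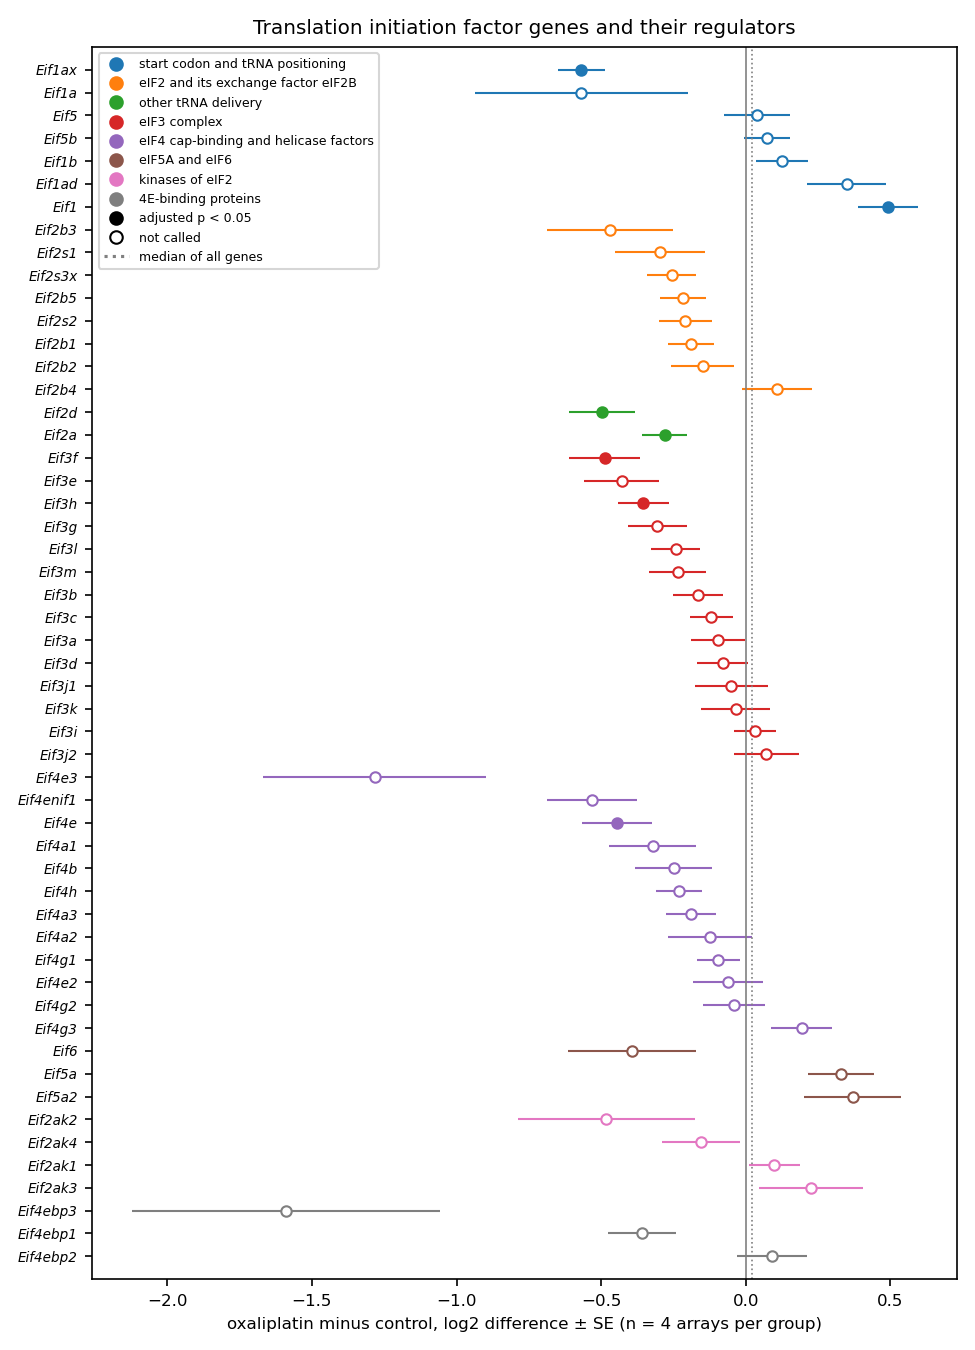
Log2 difference between oxaliplatin and control arrays for the 46 measured factor genes and the 7 regulators, grouped and coloured by role and sorted by value, with bars of ± SE (n = 4 arrays per group). Filled points have an adjusted p under 0.05, the solid line marks 0 and the dotted line the median of all genes, 0.02. Most points lie to the left of both lines, and Eif1 is the only filled point to the right.

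Single arrays gave the following. Against the mean of the control arrays, 32, 35 and 32 of 46 factor genes were lower on oxaliplatin replicates 1, 2 and 3, and 35 of 45 on replicate 4. The same count was 33, 32, 26 and 12 of 46 on control replicates 1 to 4, so that control replicates 1 and 2 had as many genes below that mean as oxaliplatin replicates 1 and 3. The median deviation of the factor genes was -0.15, -0.22, -0.19 and -0.22 on these arrays, while that of all genes lay between 0.00 and 0.04. The control arrays themselves differed, with medians of -0.07, -0.04, -0.02 and 0.10 on replicates 1 to 4. Control replicate 4 was the highest of the 4 controls for 28 of the 46 factor genes, against 33.4% of all genes. Without it the median difference was -0.16, and 7 factor genes fell (5.96% of all genes).

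**Figure D2:**
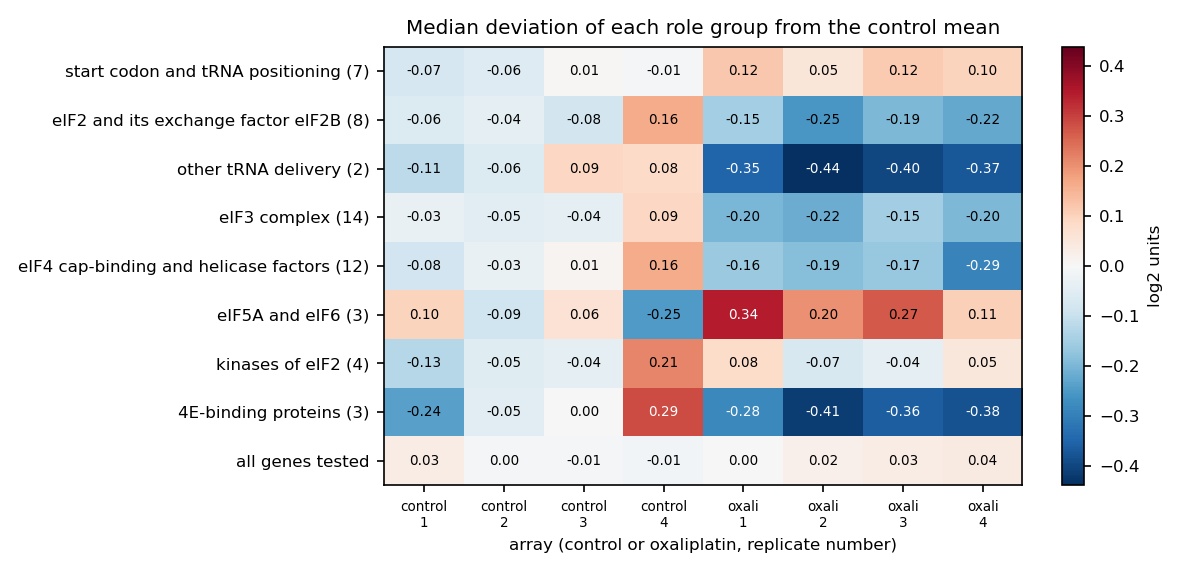
Median deviation from the control mean, in log2 units, of each role group (rows, number of measured genes in brackets) and of all genes tested on each of the 8 arrays (columns). Blue is lower and red higher than the control mean. The eIF2, tRNA delivery, eIF3 and eIF4 rows are blue on all 4 oxaliplatin arrays, from -0.15 to -0.44, while the start codon row lies at 0.05 to 0.12 there.

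Of 7 genes of factors that set the start codon 1 rose, 1 fell and 5 did not pass, with a median of 0.07. Over all genes tested 10.3% rose and 6.72% fell. Eif1 encodes eIF1, which rejects wrong start codons. Its level was 5.49, 5.58, 5.34 and 5.23 on control replicates 1 to 4 and 6.03, 5.86, 5.89 and 5.82 on oxaliplatin replicates 1 to 4. Every oxaliplatin array was above every control array. The gene rose by 0.49 ± 0.10 (1.41-fold, 95% interval 0.25 to 0.73, adjusted p = 0.0191). Its other probes gave 0.34 and 0.75; the files place the latter on another chromosome (mm9 chr1:171383855-171383914) than the former (chr11:100182689-100182749). The Eif1 call ended after quantile normalization, where the difference was 0.19 (adjusted p = 0.179), in the series matrix values (0.20, adjusted p = 0.167), and without control replicate 3 (0.47, adjusted p = 0.0559) or oxaliplatin replicate 3 (0.49, adjusted p = 0.0568).

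Eif1ax encodes the X-linked form of eIF1A, which steadies the initiator tRNA on the scanning ribosome. Its level was 2.24, 2.18, 2.20 and 2.34 on the control arrays and 1.63, 1.64, 1.63 and 1.80 on the oxaliplatin arrays. The groups lay far apart and 3 of the oxaliplatin values nearly coincided. Eif1ax fell by 0.57 ± 0.08 (1.48-fold lower, 95% interval -0.76 to -0.38, adjusted p = 0.00584), and its second probe gave -0.36. The call held under 20 of 21 alternative settings, where the other 6 calls held under 7 to 14, and ended only on the 6 arrays of the first run name (-0.53, adjusted p = 0.0578). Its autosomal relative Eif1a had a difference of the same size, -0.57 ± 0.37 (adjusted p = 0.31), but with overlapping groups: the controls read 1.86, 1.59, 1.78 and 3.34 and the oxaliplatin arrays 1.91, 1.63, 1.33 and 1.42. Without control replicate 4 its difference was -0.17. Eif1ad, a nuclear protein with an eIF1A-like domain, was at -2.15 ± 0.24 and -1.80 ± 0.14 (SD, n = 4; difference 0.35, adjusted p = 0.112). Eif1b (0.13, adjusted p = 0.352), Eif5, the activator of GTP hydrolysis by eIF2 (0.04, adjusted p = 0.841), and Eif5b, which joins the large subunit (0.07, adjusted p = 0.549), had intervals of -0.08 to 0.33, -0.23 to 0.30 and -0.11 to 0.26.

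None of the 8 genes of eIF2, which carries the initiator tRNA, and of its exchange factor eIF2B passed limma's test. Of these genes 3 were lower at an unadjusted p under 0.05, as were 2066 of all 13912 genes. The difference was below 0 for 7 of the 8, with a median of -0.21. The groups did not overlap for 4 (Eif2s2, Eif2s3x, Eif2b1 and Eif2b5), all lower, where 11.7% of all genes were lower without overlap. Eif2s3x, the subunit of eIF2 that binds the tRNA, read 1.24, 1.04, 0.97 and 1.07 on control arrays and 0.86, 0.82, 0.79 and 0.82 on oxaliplatin arrays. All 4 oxaliplatin values lay in a narrow band below the lowest control, and the difference was -0.26 ± 0.08 (adjusted p = 0.0726). Eif2s2, the subunit beside it, differed by -0.21 ± 0.09 (adjusted p = 0.154), from 2.27 ± 0.12 to 2.06 ± 0.09 (SD, n = 4), but its other probes gave 0.14 and 0.07. Eif2s1, the subunit that the stress kinases phosphorylate, differed by -0.30 ± 0.16 (adjusted p = 0.217), and its other probes gave -0.14 and -0.68. Eif2b3, a subunit of the exchange factor, had the largest difference of the group, -0.47 ± 0.22 (adjusted p = 0.171), but its probe was above background on 2 of 4 oxaliplatin arrays and gave 0.0060 after normexp background correction.

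Both genes for tRNA delivery outside eIF2 fell, with a median of -0.39, where 6.72% of all genes fell. Eif2d encodes a factor that can place tRNA on the ribosome without GTP. It read -0.68, -0.55, -0.24 and -0.40 on control arrays and -0.94, -1.10, -0.97 and -0.85 on oxaliplatin arrays. No oxaliplatin array reached the lowest control. Eif2d fell by 0.50 ± 0.11 (1.41-fold lower, adjusted p = 0.0253), and its 4 probes gave -0.25 to -0.70. Eif2a, which despite its symbol is no subunit of eIF2 but a separate tRNA-binding factor, read 1.58, 1.55, 1.54 and 1.69 against 1.36, 1.35, 1.30 and 1.24. It fell by 0.28 ± 0.08 (1.22-fold lower, adjusted p = 0.043), and its second probe gave -0.58. The Eif2d call ended without control replicate 3 (-0.42, adjusted p = 0.0607), oxaliplatin replicate 2 (-0.45, adjusted p = 0.067) or oxaliplatin replicate 3 (-0.50, adjusted p = 0.0691), and the Eif2a call without any single array (-0.25 to -0.30, adjusted p between 0.0622 and 0.113).

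**Figure D3:**
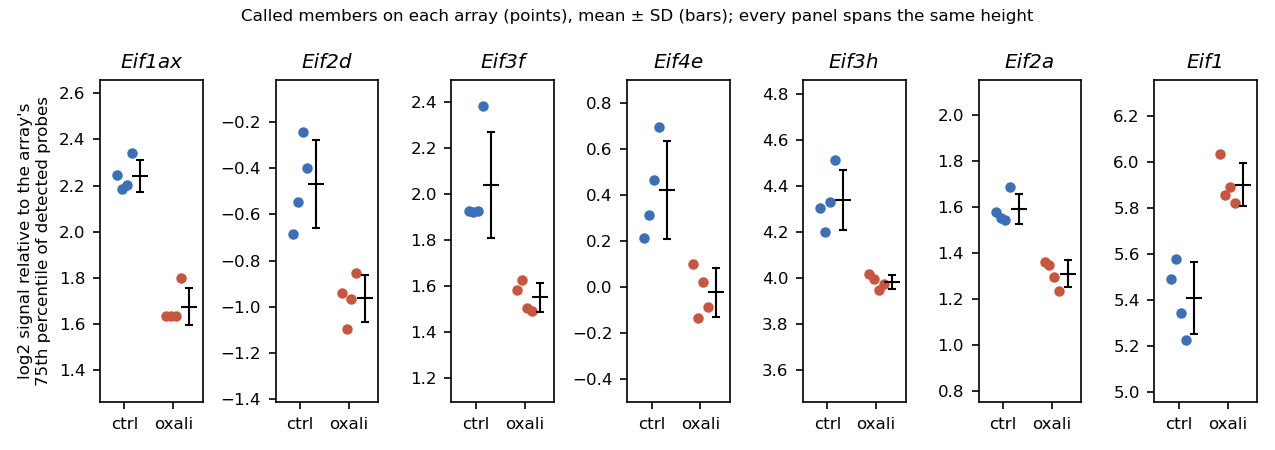
Level of the 7 members past the threshold on each array (points), as log2 signal relative to the array's 75th percentile of detected probes, with the mean ± SD of each group (n = 4). Control arrays are blue and oxaliplatin arrays red, and every panel spans the same height in log2 units. The groups do not overlap in any panel, and Eif1 is the only panel in which the red points lie above the blue.

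The eIF3 complex, the scaffold that binds the small subunit, had 2 of 14 genes lower, none higher and 12 that did not pass. Of the 14 genes 12 were below 0, and the median was -0.14. The groups did not overlap for 6 (Eif3b, Eif3e, Eif3f, Eif3g, Eif3h and Eif3l), all lower. Over all genes tested 6.72% fell and 10.3% rose, and 11.7% were lower with groups that did not overlap. Eif3f, a subunit of the MPN fold, read 1.92, 1.92, 1.93 and 2.38 on control arrays and 1.58, 1.62, 1.50 and 1.49 on oxaliplatin arrays. The first 3 controls were nearly equal and control replicate 4 stood above them. Eif3f fell by 0.49 ± 0.12 (1.40-fold lower, adjusted p = 0.0324), while its second, dim probe gave -0.11. Eif3h, the other MPN subunit, read 4.31, 4.20, 4.33 and 4.51 against 4.02, 4.00, 3.95 and 3.97. It fell by 0.35 ± 0.09 (1.28-fold lower, adjusted p = 0.0321), and its second probe gave -0.18. The Eif3f call ended without control replicate 3 (-0.52, adjusted p = 0.0603) or any single oxaliplatin array (-0.47 to -0.51, adjusted p between 0.0609 and 0.0876). The Eif3h call ended without control replicate 1 or 3 or any single oxaliplatin array (-0.34 to -0.37, adjusted p between 0.0569 and 0.0902).

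Eif3e, a PCI-domain subunit, read 2.37, 2.30, 2.40 and 2.74 on control arrays and 2.09, 2.07 and 1.92 on oxaliplatin replicates 1 to 3; the spot of replicate 4 was marked as an outlier in the files and was left out of the fit. The difference over these 7 values was -0.43 ± 0.13 (adjusted p = 0.0616). The other probes of Eif3e gave -0.50 and -0.45, with adjusted p = 0.027 and 0.0288 over all 54636 probes tested singly, of which 6.2% were lower. In the authors' deposited table of log2 values, which gives a value for that spot, the difference was 0.62 (adjusted p = 0.672). The core subunits were closer to 0: Eif3a differed by -0.10 (95% interval -0.31 to 0.12), Eif3b by -0.17 (-0.36 to 0.03) and Eif3c by -0.12 (-0.29 to 0.05). Eif3g, an RNA-binding subunit, and Eif3l differed by -0.31 (adjusted p = 0.0741) and -0.24 (adjusted p = 0.0879), with non-overlapping groups, while their second probes gave -0.01 and -0.26. Eif3i differed by 0.03 (-0.14 to 0.20).

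The cap-binding and helicase factors of the eIF4 group had 1 of 12 measured genes lower, none higher and 11 that did not pass. Over all genes tested 6.72% fell and 10.3% rose. The median of the group was -0.21, with 11 of 12 below 0, where 47.6% of all genes were. Eif4e encodes the cap-binding protein itself. It read 0.21, 0.31, 0.47 and 0.70 on control arrays and 0.10, -0.13, 0.02 and -0.08 on oxaliplatin arrays. The gap between the groups was narrow, and the controls spread more widely than the oxaliplatin arrays. Eif4e fell by 0.45 ± 0.12 (1.36-fold lower, 95% interval -0.73 to -0.16, adjusted p = 0.0423), and its other probes gave -0.23 and -0.32. The call ended without control replicate 2, 3 or 4 or any single oxaliplatin array (-0.35 to -0.49, adjusted p between 0.0522 and 0.103).

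The relatives of Eif4e did not pass the test. Eif4e3, a cap-binding relative, had the largest difference of the 46 factor genes: the controls read -0.89, -0.75, 0.38 and 0.42 and the oxaliplatin arrays -0.76, -1.46, -1.93 and -1.82. The groups overlapped, because oxaliplatin replicate 1 lay between control replicates 1 and 2. The difference was -1.28 ± 0.38 (adjusted p = 0.0551), and all 3 probes gave -1.26 to -1.31. Eif4e3 passed the test without control replicate 1 (-1.51, adjusted p = 0.0452) or oxaliplatin replicate 1 (-1.53, adjusted p = 0.0426). Without any other single array it did not pass (-1.07 to -1.46, adjusted p between 0.0508 and 0.135). Eif4e2, a repressive relative, was at -0.06 ± 0.12 (adjusted p = 0.741) by its brightest probe. Its other kept probes, all dimmer, gave 0.96, 0.53 and 0.10, and the mean over its probes 0.38 (adjusted p = 0.0578). Eif4enif1, the carrier of eIF4E into the nucleus, read -0.87, -1.05, -0.80 and -0.31 against -1.18, -1.37, -1.30 and -1.30. These groups did not overlap, yet the difference of -0.53 ± 0.16 missed the threshold (adjusted p = 0.051). Eif4enif1 passed without control replicate 2 (-0.63, adjusted p = 0.0353) or control replicate 4 (-0.38, adjusted p = 0.0381). It did not pass without any other single array (-0.50 to -0.57, adjusted p between 0.074 and 0.116).

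The helicase genes Eif4a1 (-0.32 ± 0.15, adjusted p = 0.172) and Eif4a2 (-0.12 ± 0.14, adjusted p = 0.578) and the scaffold Eif4g1 (-0.10 ± 0.07, adjusted p = 0.396) did not pass. Among Eif4a1 probes 1 dim probe gave 0.41 and the others -0.32 to -0.47. Eif4h, which assists the helicase, read 3.93, 3.83, 3.89 and 4.02 against 3.76, 3.66, 3.69 and 3.63, a difference of -0.23 ± 0.08 (adjusted p = 0.0828) with non-overlapping groups. Eif4g3, a relative of the scaffold, was the only measured eIF4 gene above 0 (0.19 ± 0.10, adjusted p = 0.229).

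None of the 3 genes of eIF5A and eIF6 passed limma's test, and 1 was higher at an unadjusted p under 0.05, as were 2679 of all 13912 genes. Eif5a, whose product carries the modified amino acid hypusine and helps peptide bond formation, read 4.96, 4.78, 5.10 and 4.62 on control arrays and 5.21, 5.22, 5.14 and 5.22 on oxaliplatin arrays. The groups did not overlap, the oxaliplatin values were close together, and the difference was 0.33 ± 0.11 (adjusted p = 0.0848). The other probes of Eif5a gave -0.09 and -0.06. Its relative Eif5a2 differed by 0.37 ± 0.17 (adjusted p = 0.163), and Eif6, which keeps the large subunit apart until joining, by -0.39 ± 0.22 (adjusted p = 0.245). The enzymes that make hypusine, Dhps (-0.23, adjusted p = 0.0712) and Dohh (0.22, adjusted p = 0.203), did not pass either.

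The 7 regulators were all measured and none passed limma's test. At an unadjusted p under 0.05, 2 of them, both 4E-binding proteins, were lower, as were 2066 of all 13912 genes. Among the kinases of eIF2, Eif2ak1, the haem-regulated kinase, differed by 0.10 ± 0.09 (adjusted p = 0.467), and Eif2ak2, the kinase PKR that senses double-stranded RNA, by -0.48 ± 0.31 (adjusted p = 0.3). Eif2ak3, the kinase PERK of the endoplasmic reticulum, differed by 0.23 ± 0.18 (adjusted p = 0.41) and Eif2ak4, the amino acid sensor GCN2, by -0.15 ± 0.13 (adjusted p = 0.451). The binding protein gene Eif4ebp3 had the largest difference of all members: the controls read 3.22, 3.50, 4.32 and 5.78 and the oxaliplatin arrays 3.05, 2.13, 2.92 and 2.35. Every oxaliplatin array was below every control, but the controls spanned more than the gap, and the difference was -1.59 ± 0.53 (adjusted p = 0.0759), with -1.55 and -2.06 in its other probes. Eif4ebp1 read 2.76, 2.95, 2.99 and 3.28 against 2.72, 2.58, 2.64 and 2.62, a difference of -0.36 ± 0.12 (adjusted p = 0.0699), and its other probes gave 0.52 and -0.50. Eif4ebp2 differed by 0.09 ± 0.12 (adjusted p = 0.63).

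The probes of a gene mostly pointed the same way. Of 126 probes of factor genes kept, 89 were below 0, with a median of -0.13 against 0.02 over all kept probes. Of 42 factor genes with more than 1 kept probe, 32 had probes of 1 sign and 10 of both, and the median spread between a gene's probes was 0.213. The spread was over 0.5 for 4 genes, Eif2s1, Eif3j2, Eif4a1 and Eif4e2. For Eif3j2 the brightest probe gave 0.07 and a dim one 0.83.

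**Figure D4:**
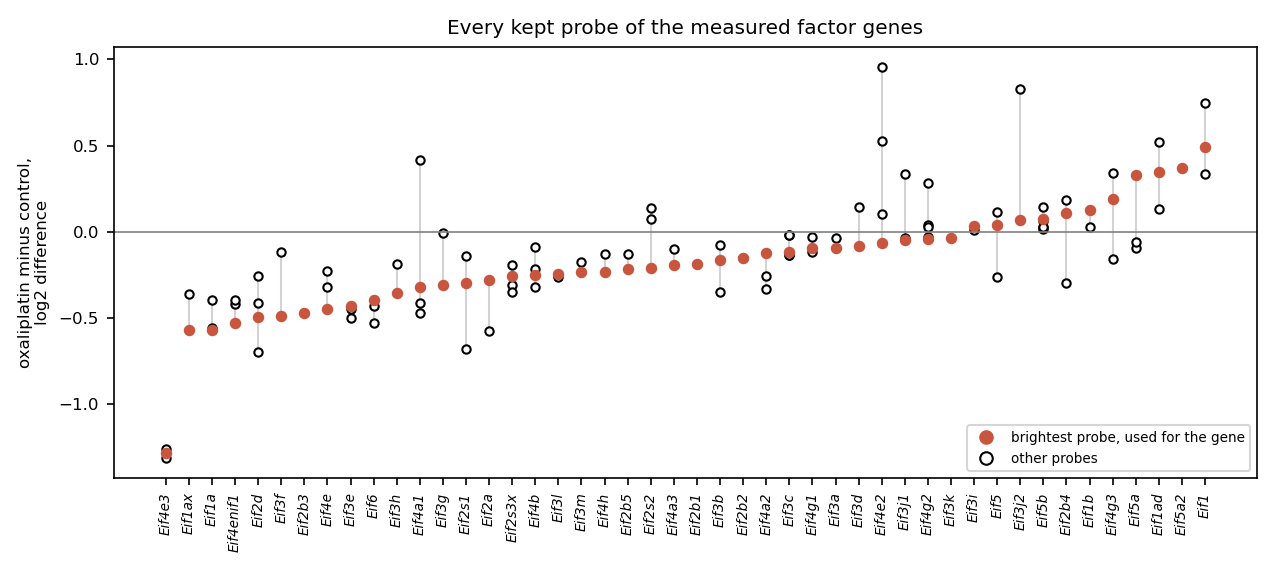
Log2 difference between oxaliplatin and control arrays for every kept probe of the 46 measured factor genes, sorted by the value of the brightest probe. Red points are the brightest probe, which stands for the gene, and open points the other probes, joined by a line. The 3 Eif4e3 probes lie together near -1.28, while for Eif4e2 and Eif3j2 dim probes stand well above the brightest one.

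How many factor genes passed depended on the scaling of the arrays and on single arrays, while the sign of the family's median did not. With the 75th percentile taken over all probes 16 factor genes fell and 1 rose, where 11.6% of all genes fell and 6.99% rose. That scaling moved the median of all genes from 0.02 to -0.09 and that of the factor genes to -0.30, and the distance between both medians stayed at -0.21. Of the genes called among all genes 60.5% were higher here and 37.6% with that scaling. Median centring, under which 48.8% of calls were higher, gave 13 factor genes lower and 1 higher, where 8.97% and 8.55% of all genes passed. Quantile normalization gave 7 lower and none higher (8.07% of all genes each way; 16 and 0 at an unadjusted p under 0.05 with limma), and 50% of its calls among all genes were higher. The deposited log2 values of the series matrix gave 7 lower and none higher (8.13% and 7.92% of all genes), the mean over a gene's probes 4 and 2 (5.2% and 9.18%), and no filter on dim probes 5 and 2 of 48 (4.18% and 17.7%). Without the filter the gene called higher besides Eif1 was Eif4a3l1, whose probe was above background on 0 arrays. Leaving out control replicate 3 left 1 factor gene lower, where 2.97% of all genes were lower. Leaving out oxaliplatin replicate 1, 2, 3 or 4 left 3, 1, 1 and 2 lower, where 4.61%, 3.25%, 2.3% and 3.08% of all genes were. On the 6 arrays of the first run name no factor gene passed with limma, where 3.98% of all genes did. At an unadjusted p under 0.05, 2 factor genes were higher and 9 lower there. The shares of all genes at the unadjusted cut-off are not given here for quantile normalization or the first run name. Adding the run name as a covariate left 1 lower, Eif1ax (2.43% of all genes). Eif1 was then at 0.45 (adjusted p = 0.085), and at 0.45 (adjusted p = 0.114) on the 6 arrays. The mean over a gene's probes ended the calls of Eif2d (-0.47, adjusted p = 0.0607), Eif3f (-0.30, adjusted p = 0.173), Eif3h (-0.27, adjusted p = 0.0757) and Eif4e (-0.33, adjusted p = 0.14). The Eif2a call also ended after quantile normalization (adjusted p = 0.0507), in the series matrix values (adjusted p = 0.0513) and without the filter (adjusted p = 0.0644). The median of the factor genes was below 0 in all 21 alternative settings, between -0.30 and -0.16. Not all of these settings could move it. The trend and robust eBayes fits alter only the variance, and they and the replicate block left the median at -0.19. The run name as a covariate gave the same median as the first run name alone (-0.18), because the second run name holds no control array.

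**Figure D5:**
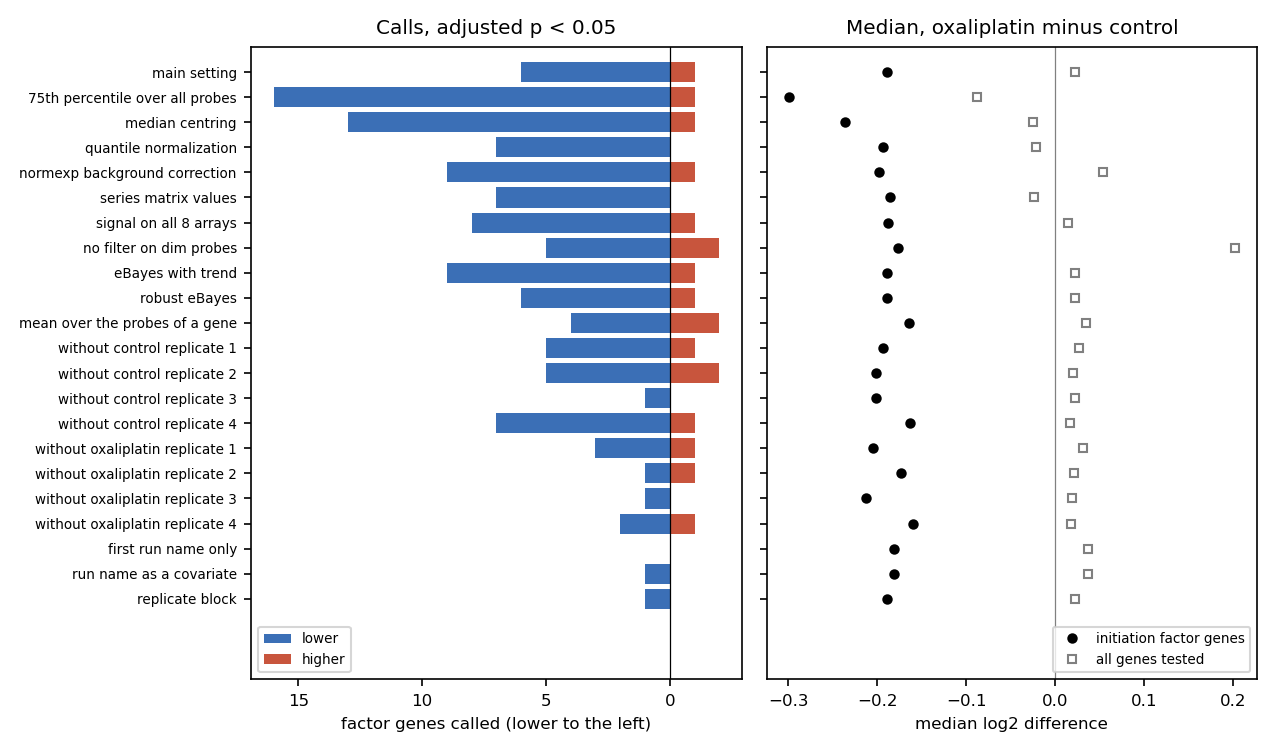
Results under the main setting (top row) and 21 alternatives. The left panel gives the number of factor genes called lower (blue, to the left) and higher (red, to the right) at an adjusted p under 0.05, and the right panel the median log2 difference of the factor genes (filled circles) and of all genes tested (open squares). The calls range from none to 17, while the circles stay between -0.30 and -0.16, left of the square in every row.

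The rest of the translation pathway was read from 5 lists, in which 15 genes passed, beside 17% of all genes (10.3% higher and 6.72% lower). Among 12 elongation genes 2 rose, Eef1a1, which brings aminoacyl-tRNA to the ribosome (0.48 ± 0.08, adjusted p = 0.00912), and Eef1g, part of its exchange factor (0.29 ± 0.08, adjusted p = 0.0419). The list's median was 0.00. None of 9 genes of termination and ribosome recycling passed limma's test, and 0 had an unadjusted p under 0.05 (median 0.06). Of all 13912 genes 2679 were higher and 2066 lower at that unadjusted cut-off. Among 21 other partners of initiation 2 rose and 2 fell, with a median of -0.09. Pdcd4, an inhibitor of the eIF4A helicase, rose by 0.64 ± 0.14 (adjusted p = 0.0194) and Larp1, which binds the messenger RNAs of ribosomal proteins, by 0.49 ± 0.11 (adjusted p = 0.0234). Mknk2, a kinase of eIF4E, fell by 0.64 ± 0.12 (adjusted p = 0.0132) and Bzw2, a mimic of eIF5, by 0.54 ± 0.09 (adjusted p = 0.00961).

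The list for the integrated stress response, the programme that follows phosphorylation of eIF2, had 3 of 18 tested genes higher and 2 lower (median 0.01). Of all genes 10.3% and 6.72% passed. The transcription factor gene Cebpg (0.74 ± 0.18, adjusted p = 0.029), Nupr1 (0.66 ± 0.19, adjusted p = 0.047) and Sesn2 (0.32 ± 0.09, adjusted p = 0.0432) rose. The pseudokinase gene Trib3 fell by 1.12 ± 0.20 (adjusted p = 0.0109) and the lipoprotein receptor gene Vldlr by 1.68 ± 0.33 (adjusted p = 0.0145). Atf4, the transcription factor of this response, differed by 0.00 ± 0.09 (adjusted p = 0.989). In mTORC1 signalling 3 of 20 genes rose and 1 fell (median 0.14): the kinase Mtor by 0.61 ± 0.12 (adjusted p = 0.0142), its partner Rptor by 0.34 ± 0.08 (adjusted p = 0.0333) and Castor2 by 0.61 ± 0.11 (adjusted p = 0.011) rose, while the arginine sensor Castor1 fell by 0.52 ± 0.14 (adjusted p = 0.0412). Over the 5 lists together all arrays gave 15 calls. Leaving out control replicate 3 or oxaliplatin replicate 2 or 4 left 8 calls each, and leaving out oxaliplatin replicate 3 left 7. Calls among all genes tested also fell, from 2366 to 1150 without control replicate 3. They fell to 1279, 990 and 1197 without oxaliplatin replicate 2, 3 and 4, so the loss of calls was not particular to these lists.

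Promoter sequence was compared over 38 factor genes found in RefSeq's promoter table (GRCm38.p6), in windows of 300 bases, of which 250 precede the start. The E-box CACGTG lay in 10 of 38 windows (26.3%) and in 8.09% of 27025 genes, and the ETS motif CCGGAAG in 14 (36.8%) against 9.93%. The letters TATAAA lay in 3 (7.89%) against 15.7%, and CCAAT in 14 (36.8%) against 41.1%. Both strands were searched, and none of these motifs contains another. Among the members past the threshold, Eif3f and Eif4e hold an E-box and Eif1ax the ETS motif. Whether Eif2a, Eif2d and Eif3h were among the 38 genes is not given here. A match is only a match of letters.

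The stretch from 150 bases before to 20 after the start is printed for Eif1, the gene that rose, and for Eif1ax, Eif3f and Eif4e, which fell, all on the plus strand, with the searched motifs in capitals.

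Eif1 (chr11:100319799-100319968): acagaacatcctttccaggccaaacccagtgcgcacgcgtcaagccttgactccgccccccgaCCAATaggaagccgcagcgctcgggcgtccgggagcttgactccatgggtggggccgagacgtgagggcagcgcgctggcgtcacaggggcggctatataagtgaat
Eif1ax (chrX:159372028-159372197): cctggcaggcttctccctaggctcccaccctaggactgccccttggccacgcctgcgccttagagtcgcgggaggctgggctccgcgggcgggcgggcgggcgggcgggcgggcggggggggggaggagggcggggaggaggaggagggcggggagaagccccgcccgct
Eif3f (chr7:108934265-108934434): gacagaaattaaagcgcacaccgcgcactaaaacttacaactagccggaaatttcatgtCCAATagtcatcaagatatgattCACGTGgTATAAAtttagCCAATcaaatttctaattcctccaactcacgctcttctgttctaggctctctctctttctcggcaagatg
Eif4e (chr3:138527118-138527287): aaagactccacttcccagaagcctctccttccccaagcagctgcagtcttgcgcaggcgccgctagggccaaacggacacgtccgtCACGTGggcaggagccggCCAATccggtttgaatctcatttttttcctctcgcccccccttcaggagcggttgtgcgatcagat

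In Eif3f the E-box begins 68 bases before the start, with TATAAA at 61 and CCAAT at 91 and 50 bases before it. In Eif4e, printed for the second of its 2 starts in the table, the E-box begins 64 and CCAAT 46 bases before the start. In Eif1 CCAAT begins 87 bases before the start, and the printed Eif1ax stretch holds none of the motifs.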

How the data were processed

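Per the file headers, the images were quantified in Feature Extraction 12.0.3.1; the version in the submitters' processing notes is 10.7, and they also name limma. The deposited processed signal is an intensity, linear and with background removed inside each array, per the file headers. The authors' log2 values in the series matrix cover 46867 probes and come with no statement of their normalization. Here the signal was put on a log2 scale, and the 75th percentile of the 38453 probes detected on all 8 arrays was subtracted array by array, because most probes were not detected. Outlier spots (115 of 1198256) were dropped. Of 149782 probes 48132 had a gene symbol, 47985 of them by accession from RefSeq's table (GRCm38.p6). Probes well above background on 4 or more arrays were kept (54636 probes), which gave 13912 genes, with the brightest probe standing for each symbol. The test was limma's (lmFit, eBayes; version 3.58.1, R 4.3.3), adjusted by Benjamini-Hochberg over all genes with a threshold of 0.05.

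Members and lists were chosen with earlier results of these data known. Members were named with values where they passed the test or had the largest difference or the brightest probe of their role group, and so were each list's called genes; other members were named after their values were seen. On simulated data for this comparison (13900 genes, 200 changed) 26.9% were called at a log2 change of 0.5, 67.2% at 1 and 92.4% at 2, with 5 of 129 calls false. The data gave 2366 calls, far more than the simulation. With fewer calls Benjamini-Hochberg adjustment demands a smaller p, so the simulated rates can be lower than those of this comparison. Alternatives varied the scaling, the source and background correction of the signal (normexp, offset 50), the filter, the variance model and the probe, left out single arrays, or took account of the run name or replicate number. Plots were made in Python 3.11.15 (matplotlib 3.10.9) from tables handled with pandas 2.3.3 and numpy 2.4.6. The number of arrays limits the precision.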

Additional observations from a re-analysis of the deposited data

Results flagged for a closer look

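In 9 of 105 groups of 4 arrays examined, over 46 factor genes and 7 regulators, 1 array lay far from the other 3: its gap to the nearest one took up more of the group's range than Dixon's critical value allows. Chance alone gives about 1 such group in 20. Control replicate 4 was the highest control for Eif1a (3.34, next 1.86), Eif3b (2.50, next 2.35), Eif3f (2.38, next 1.93) and Eif4a3 (2.57, next 2.38). Oxaliplatin replicate 1 was the highest of its group for Eif3m (2.30, next 2.08) and the lowest for Eif4a2 (2.22, next 2.66) and Eif4ebp2 (1.09, next 1.24). Oxaliplatin replicate 4 was the highest for Eif1ax (1.80, next 1.64), still below every control. Oxaliplatin replicate 3 was the lowest for Eif5a (5.14, next 5.21), still above every control.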

How the results depend on the processing

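The trend and robust eBayes settings alter only the variance and could not change a direction. Over 21 alternative settings, these included, 947 of 965 single values of the 46 named members kept their direction. Those that changed sign lay near 0 in the alternative, apart from Eif3e and Eif4e2. With the 75th percentile over all probes Eif2ak1 was at -0.011, Eif3i at -0.078, Eif3j2 at -0.038, Eif4ebp2 at -0.019, Eif5 at -0.072 and Eif5b at -0.036. With the mean over probes Eif2ak1 was at -0.047, Eif2s2 at 0.00057, Eif4e2 at 0.38 and Eif5 at -0.036. With normexp Eif2b3 was at 0.0060 and Eif5 at -0.0040. Eif3i was at -0.015 and Eif5 at -0.0086 after median centring. With 1 array left out Eif5 was between -0.029 and 0.092 and Eif4e2 between -0.15 and 0.032, and Eif3e was at 0.62 in the series matrix, which holds a value for the dropped spot. The 6 factor genes called lower became 16 with the all-probe percentile, 13 with median centring, 0 within the first run name, 1 with the run name as a covariate and 1 to 7 with 1 array left out. The 1 called higher became 0 after quantile normalization, in the series matrix, within the first run name and with the covariate, 2 without a filter on dim probes or with the mean over probes, and 0 to 2 with 1 array left out. The gene added without the filter was Eif4a3l1, above background on 0 arrays. The median of the factor genes moved beyond the spread between replicates in 1 setting, the all-probe percentile (-0.30). Calls among all genes (2366) became 4650 without the filter, 554 within the first run name, 957 with the covariate and 990 to 2254 with 1 array left out. The 15 calls in the pathway lists became 1 within the first run name, 5 with the covariate and 7 to 14 with 1 array left out. The cause of these changes was not tested. Without the filter 80.9% of calls were higher and the median of all genes was 0.20, with normexp 65.9% and in the series matrix 49.3%.

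Arrays of the same replicate number did not deviate together (correlations of -0.32, -0.08, -0.09 and -0.23 for replicates 1 to 4). Between different numbers the correlations ran from -0.39 to 0.44. These values cannot show whether the numbers pair the mice, since a pairing need leave no shared deviation. With the number as a replicate block 1 factor gene was lower and 0 higher, 699 genes were called in all and 4 in the pathway lists.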
